A study of Mus musculus with 8 samples.

Results

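The melanocortin system was examined in whole adrenals as a set of 8 genes: the receptors *Mc1r*, *Mc2r*, *Mc3r*, *Mc4r* and *Mc5r*, the accessory proteins *Mrap* and *Mrap2*, and *Pomc*, which encodes the precursor of the ligands. The genes were taken by symbol from the annotation of the arrays. All 8 were measured, each by 1 transcript cluster (the group of probes that covers a gene), out of 21905 gene symbols in all. RNA came from 4 wild-type adrenals (WT) and 4 adrenals of the genotype *sf1:Cre; Prkar1a Fl/Fl* (KO). In KO mice both *Prkar1a* alleles are floxed, and Cre driven by *Sf1* regulatory regions inactivates them in the steroidogenic cells of the cortex from the time it first forms. According to the methods, all mice were 6-week-old females on a mixed background and controls were littermates. Medulla, capsule, vessels and any attached fat are part of the dissected gland and are not the cells to which this Cre is directed. Expression was read on Affymetrix Mouse Gene ST arrays, and every value is a log2 signal normalized by RMA, so a step of 1 is a doubling.

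ACTH, cut from the POMC precursor in the pituitary, drives glucocorticoid synthesis in the zona fasciculata through MC2R, which couples to the stimulatory G protein and so to adenylyl cyclase, cAMP and PKA. MC2R binds no other natural melanocortin, and it needs MRAP both to reach the cell surface and to bind ACTH. The other receptors answer to melanocyte-stimulating hormones as well and are best known outside the adrenal: MC1R in pigment cells, MC3R and MC4R in the brain, MC5R in exocrine glands, muscle and fat. PRKAR1A is a regulatory subunit that holds the PKA catalytic subunits inactive, so its loss acts downstream of the receptor.

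*Prkar1a* itself fell by 1.73 on the log2 scale in KO adrenals (SE 0.12, adjusted p = 1.2e-05 from limma, n = 4 arrays per genotype), from 8.70 to 9.11 in WT to 6.92 to 7.35 in KO. Array medians lay between 5.66 and 5.72. Of 10 measured chromaffin markers 1 was higher and none lower, and the mean of these markers per array was 8.74 to 8.94 in WT and 8.60 to 9.01 in KO. All 8 zona glomerulosa markers examined were lower, with array means of 9.42 to 9.79 in WT and 7.02 to 7.39 in KO. Of 11 measured adipocyte markers 7 were lower and none higher, with array means of 8.01 to 9.97 in WT and 6.80 to 8.44 in KO, and WT replicate 1 lay within the KO range. Over all clusters tested, 7.35% were higher and 6.17% lower at an adjusted p under 0.05 from limma. Beside these shares the chromaffin count is no result about that list. Several of these marker lists share genes with earlier results of the same arrays, so their counts are no independent evidence.

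*Mrap* rose by 0.65 and *Mc2r* fell by 0.61 on the log2 scale in KO adrenals, and none of the other 6 melanocortin genes passed the test. Thus 1 of 8 members was higher and 1 lower at an adjusted p under 0.05 from limma. Over all 22822 clusters tested, 7.35% were higher and 6.17% lower, 13.5% together. WT and KO arrays did not overlap in 3 of the 8 members (*Mc2r*, *Mrap* and *Mc4r*), while 19.0% of all clusters did not overlap. Beside these shares the counts are no result about the set as a whole, and the results that follow are those of single genes.

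**Figure D1:**
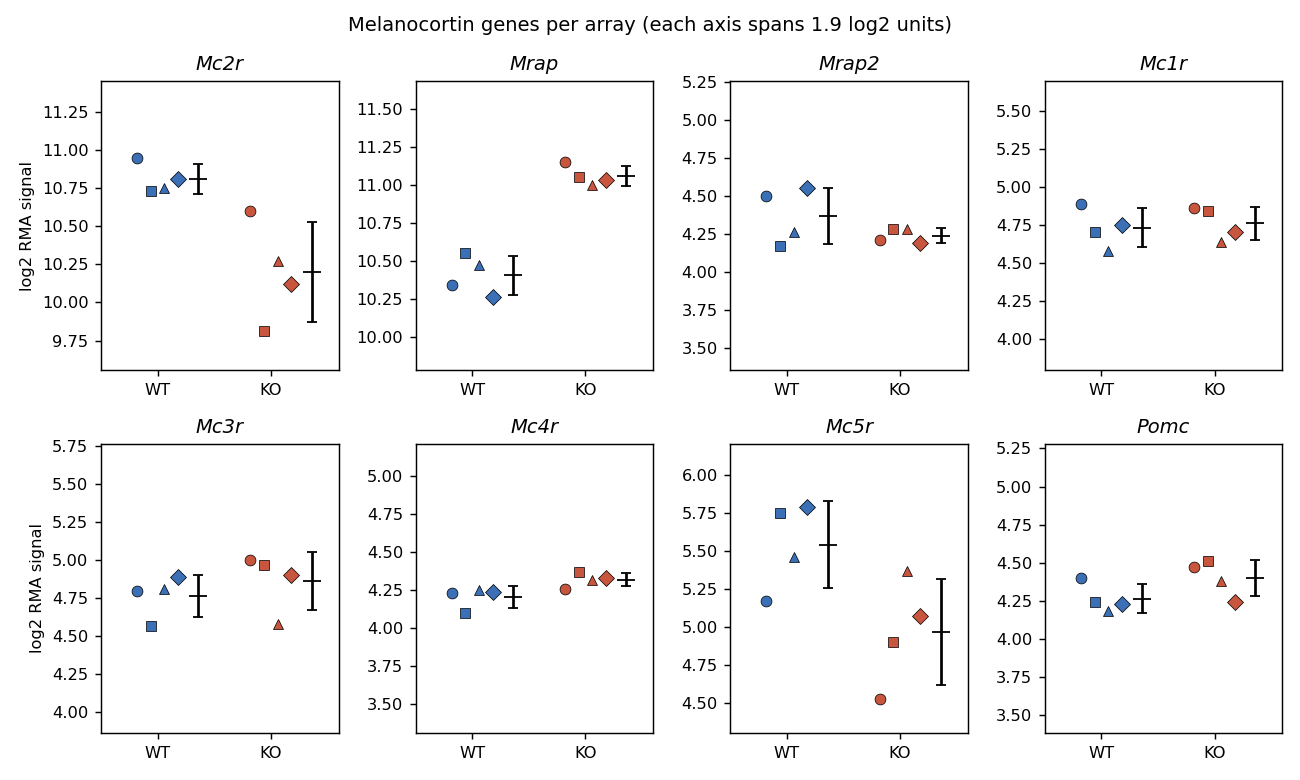
Log2 RMA signal (vertical axes, each spanning the same number of log2 units around its own mean) of the 8 melanocortin genes in WT (blue) and KO (red) adrenals. Each point is 1 array, its shape gives the replicate number (circle 1, square 2, triangle 3, diamond 4), and the black bar is the mean with its SD over 4 arrays. *Mrap* lay higher on every KO array than on any WT array, *Mc2r* lay lower, and *Mrap2*, *Mc1r*, *Mc3r* and *Pomc* overlapped between genotypes.

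*Mc2r* encodes the ACTH receptor. Its signal was 10.95, 10.73, 10.75 and 10.81 in WT replicates 1 to 4, and 10.60, 9.81, 10.27 and 10.12 in KO replicates 1 to 4. Every KO array lay below every WT array, although KO replicate 1 came within a short distance of the WT range. The spread differed between genotypes: the mean was 10.81 ± 0.099 (SD, n = 4) in WT and 10.20 ± 0.33 (SD, n = 4) in KO, and the KO values ran from 9.81 to 10.60. *Mc2r* fell by 0.61 on the log2 scale (SE 0.14, 95% interval -0.92 to -0.29, 1.52-fold, adjusted p = 0.017 from limma). By p it stood at rank 866 of the 1381 symbols that fell.

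The call of *Mc2r* depended on the test. The methods name a *t*-test without saying whether variances were taken as equal. In a *t*-test with equal variances its adjusted p here was 0.091, and with unequal variances 0.17. Without KO replicate 4, limma gave a change of -0.58 and an adjusted p of 0.052, and without KO replicate 2, the lowest array, the change was -0.48 (adjusted p = 0.027).

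*Mrap* encodes the accessory protein that MC2R requires. Its signal was 10.34, 10.55, 10.47 and 10.26 in WT replicates 1 to 4, and 11.15, 11.05, 11.00 and 11.03 in KO replicates 1 to 4. The genotypes did not overlap, and the KO arrays were close to each other, at 11.06 ± 0.064 (SD, n = 4) against 10.41 ± 0.13 (SD, n = 4) in WT. *Mrap* rose by 0.65 on the log2 scale (SE 0.078, 95% interval 0.48 to 0.82, 1.57-fold, adjusted p = 3.6e-04 from limma). Among the 1637 symbols that rose it stood at rank 231 by p and at rank 532 by the size of the change. Across the 19 alternative settings its change ran from 0.60 to 0.70, and it passed the test in each.

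The difference between *Mrap* and *Mc2r* on the same array sets the accessory protein against its receptor. On the log2 scale *Mrap* minus *Mc2r* was -0.61, -0.18, -0.28 and -0.54 in WT replicates 1 to 4, and 0.55, 1.24, 0.73 and 0.91 in KO replicates 1 to 4. The sign was negative on all 4 WT arrays and positive on all 4 KO arrays, and the mean moved by 1.26, from -0.40 ± 0.21 (SD, n = 4) to 0.86 ± 0.30 (SD, n = 4). As probes differ in their affinity, 0 on this scale does not mean equal amounts of both transcripts, and the difference shows only that the genes changed unequally. KO replicate 1, with the highest *Mc2r* of the KO arrays, also had the highest *Mrap*. In whole glands, fewer cells that express a gene and less RNA per cell cannot be told apart.

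**Figure D2:**
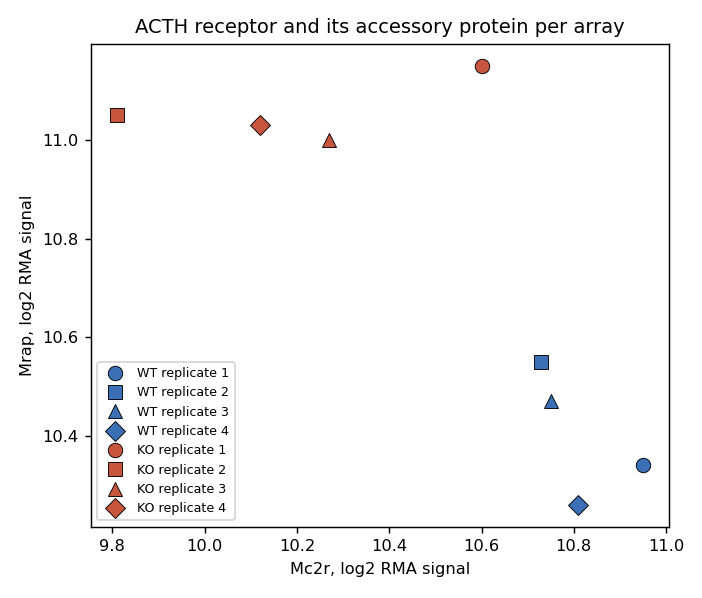
Log2 RMA signal of *Mrap* (vertical axis) against that of *Mc2r* (horizontal axis), 1 point per array, WT in blue and KO in red with the replicate number given by the shape. The 4 KO arrays lie to the upper left of the 4 WT arrays, and they spread more along *Mc2r* (9.81 to 10.60) than along *Mrap* (11.00 to 11.15).

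The second accessory protein, *Mrap2*, is known for its action on MC4R in the brain. Its signal was 4.50, 4.17, 4.26 and 4.55 in WT replicates 1 to 4, and 4.21, 4.28, 4.28 and 4.19 in KO replicates 1 to 4. The KO arrays lay inside the WT range, and the change was -0.13 (95% interval -0.33 to 0.073, adjusted p = 0.43 from limma).

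*Mc1r*, *Mc3r* and *Mc4r*, the receptors of pigment cells and brain, gave low signals in both genotypes. *Mc1r* ranged from 4.58 to 4.89 in WT and from 4.64 to 4.86 in KO, and *Mc3r* from 4.57 to 4.89 and from 4.58 to 5.0. The changes were 0.028 for *Mc1r* (95% interval -0.16 to 0.21) and 0.094 for *Mc3r* (95% interval -0.14 to 0.33), and the arrays of both genes overlapped. *Mc4r* was 4.23, 4.10, 4.25 and 4.24 in WT replicates 1 to 4, and 4.26, 4.37, 4.32 and 4.33 in KO replicates 1 to 4. Its genotypes did not overlap, yet the change of 0.11 (95% interval -0.027 to 0.26, adjusted p = 0.30 from limma) did not pass the test.

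*Pomc*, the precursor gene of ACTH and the melanocyte-stimulating hormones, was 4.40, 4.24, 4.18 and 4.23 in WT replicates 1 to 4, and 4.47, 4.51, 4.38 and 4.24 in KO replicates 1 to 4. The genotypes overlapped, and the change was 0.14 (95% interval -0.038 to 0.32, adjusted p = 0.32 from limma). The 6 measured genes of other pituitary cells, among them *Gh*, *Prl* and *Tshb*, had means per array of 4.29 to 4.42 in WT and 4.28 to 4.42 in KO.

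To judge these low signals, the 1390 clusters of olfactory and vomeronasal receptors, which an adrenal is not known to use, were taken as a guide. The 95th percentile of their means over the 8 arrays was 5.24 and their median was 3.22, and 1.8% of them passed the test between genotypes. Of the 8 melanocortin genes, 5 (*Mrap2*, *Mc1r*, *Mc3r*, *Mc4r* and *Pomc*) had means below that percentile, as did all 6 pituitary markers, so their transcripts were not distinguishable from this background and small changes in them cannot be interpreted. As affinity differs between probes, a low signal does not show that a transcript is absent.

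*Mc5r* lay at the edge of that background. Its signal was 5.17, 5.75, 5.46 and 5.79 in WT replicates 1 to 4, and 4.53, 4.90, 5.37 and 5.07 in KO replicates 1 to 4. The genotypes overlapped through WT replicate 1 and KO replicate 3, and the mean was 5.54 ± 0.29 (SD, n = 4) in WT and 4.97 ± 0.35 (SD, n = 4) in KO. The change of -0.57 (SE 0.18, 95% interval -0.98 to -0.17, adjusted p = 0.066 from limma) did not pass the test. It passed without WT replicate 1 (-0.70, adjusted p = 0.032) and without KO replicate 3 (-0.71, adjusted p = 0.027), the arrays that produced the overlap. Removing such an array widens the difference by itself, so these passes are no support. When any other array was left out, the adjusted p from limma was 0.10 to 0.16. The *t*-tests gave adjusted p of 0.20 with equal and 0.22 with unequal variances. In the annotated mouse genome *Mc5r* is the protein-coding gene next to *Mc2r* on chromosome 18.

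Adipocyte markers, taken as a mean, moved with *Mc5r*. The mean of the 11 markers was 8.01, 9.79, 9.63 and 9.97 in WT replicates 1 to 4, and 6.80, 7.59, 8.44 and 7.77 in KO replicates 1 to 4. Ranked by this mean or by *Mc5r*, the 8 arrays stood in the same order. That order was shared by 18 of the 22822 clusters (0.0789%). *Adipoq*, the adipocyte hormone, was the only one of the 11 markers among them. They also held *Pparg* and *Cebpa*, transcription factors of adipocytes, and, among others, *Ankef1* and *Usp28*. *Lep*, another marker in the mean, had a change of 1.05, opposite to the mean, that did not pass (adjusted p = 0.23 from limma). With the marker mean as a covariate in limma the change of *Mc5r* was 0.065 (adjusted p = 0.88). No other melanocortin gene had the order of the marker mean within either genotype.

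*Mrap* is also known from fat, and its rise ran opposite to the fall of the adipocyte markers. With the same covariate *Mrap* rose by 0.63 (adjusted p = 0.023), close to its change without it. *Mc2r*, which mouse adipocytes also express, had a change of -0.83 with the covariate (SE 0.22, adjusted p = 0.059), larger in size and with a larger SE. The marker mean itself differed between genotypes, so these values do not separate fat from genotype.

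**Figure D3:**
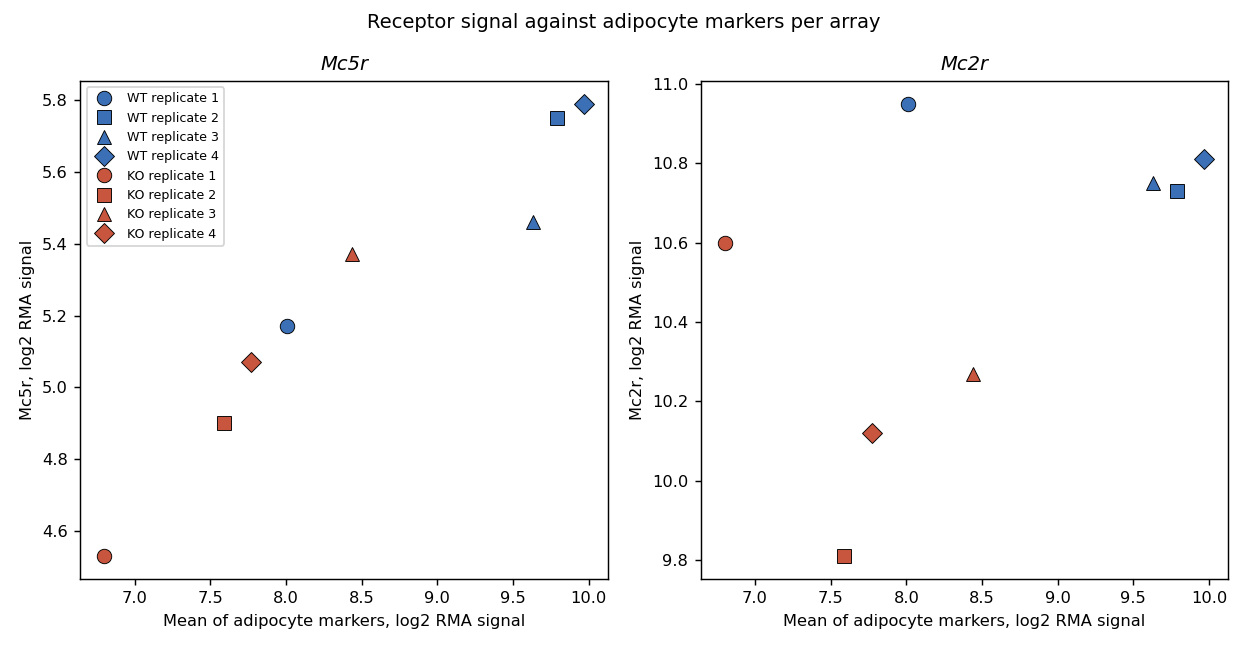
Log2 RMA signal of *Mc5r* (left) and *Mc2r* (right) against the mean of 11 adipocyte markers (horizontal axes, log2 RMA signal), 1 point per array, WT in blue and KO in red. *Mc5r* rises with the adipocyte mean through all 8 arrays, from 4.53 in KO replicate 1 to 5.79 in WT replicate 4, whereas *Mc2r* has its highest value, 10.95, in WT replicate 1, the WT array with the lowest adipocyte mean (8.01).

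The profiles most like that of *Mc2r* over the 8 arrays, by the root mean square difference of the centred log2 values, were those of *Hipk2*, a nuclear kinase (0.10), *Bmp2*, a secreted growth factor (0.11), *Galnt18* (0.12), *Hddc2* (0.12) and *Limch1* (0.13). Each fell, by between 0.51 and 0.67. Nearest to *Mrap* were *Zfyve16*, an endosomal protein (0.051), *Pde5a*, a cGMP phosphodiesterase (0.060), *Xpo5*, the exporter of microRNA precursors (0.065), *Vrk1*, a nuclear kinase (0.068), and *Pgrmc1*, a haem-binding membrane protein (0.072). Each rose, by between 0.55 and 0.67. These were the closest of 10567 candidate symbols, whose median difference was 0.40 from *Mc2r* and 0.35 from *Mrap*, and every one of the 10 passed the test. As they were chosen for their likeness to *Mc2r* and *Mrap*, which were called, their directions and calls follow from the choice. They are no separate result.

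Genes around the receptor were followed in 6 lists with 54 measured genes, of which 6 rose and 11 fell, beside 7.35% higher and 6.17% lower over all clusters. The 11 include *Prkar1a*, the targeted gene, whose fall was set by the design, and the lists were chosen with earlier results known. The median log2 fold change of all clusters tested was -0.020. Of 6 measured genes that process or degrade POMC peptides, 2 fell and none rose, with a list median of -0.080. *Cpe*, carboxypeptidase E, which trims peptides after cleavage, was 10.91 to 11.68 in WT and 10.08 to 10.65 in KO and fell by 0.93 (SE 0.16, adjusted p = 3.7e-03 from limma). *Pam*, which amidates peptides such as α-MSH, fell by 0.62 (SE 0.12), from 9.83 to 10.26 in WT to 9.24 to 9.73 in KO (adjusted p = 0.0075 from limma). The call of *Pam* was lost in the *t*-tests (adjusted p = 0.054 with equal and 0.071 with unequal variances) and with the adipocyte covariate (-0.58, adjusted p = 0.16), and that of *Cpe* with unequal variances (adjusted p = 0.066). *Pcsk1*, the convertase that releases ACTH from POMC, had a change of 0.023 (adjusted p = 0.95). Both *Cpe* and *Pam* serve many peptides besides melanocortins.

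The melanocortin antagonists *Agrp* and *Asip* were listed but had no cluster with exactly 1 gene symbol, so they were not measured here. Among 4 measured modulators of melanocortin receptors, 1 fell and none rose (list median -0.19). *Atrnl1*, an attractin-like membrane protein, was 8.41 to 8.59 in WT and 7.84 to 8.10 in KO and fell by 0.50 (SE 0.077, adjusted p = 1.8e-03 from limma, 0.063 with the adipocyte covariate). *Atrn*, attractin (-0.17), *Mgrn1*, a ubiquitin ligase (-0.20), and *Sdc3*, a cell-surface proteoglycan (-0.038), did not pass.

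Of 17 measured genes of the stimulatory G protein, adenylyl cyclases and PKA, 4 fell and none rose (list median -0.087). Besides *Prkar1a*, these were the adenylyl cyclases *Adcy5* (-0.55, SE 0.098), *Adcy9* (-0.48, SE 0.085) and *Adcy1* (-0.26, SE 0.073), the enzymes that make cAMP. *Adcy9* was 8.44 to 8.78 in WT and 8.14 to 8.26 in KO. With the adipocyte mean as a covariate the change of *Adcy5* was -0.31 (adjusted p = 0.25) and that of *Adcy9* -0.55 (adjusted p = 0.051). The call of *Adcy9* was also lost in the *t*-test with unequal variances (adjusted p = 0.076). *Adcy1*, whose means of 5.10 in WT and 4.84 in KO both lay inside the background range, so that its change cannot be interpreted, had an adjusted p of 0.038, which was 0.050 to 0.11 when any array was left out. *Gnas*, the stimulatory G protein (-0.075), and the catalytic subunits *Prkaca* (-0.087) and *Prkacb* (-0.091) did not pass.

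Genes of receptor desensitisation and trafficking moved in both directions, with 3 of 11 measured higher and 1 lower (list median 9.6e-05). *Grk5*, a kinase that phosphorylates G protein-coupled receptors, was 7.63 to 8.18 in WT and 9.13 to 9.40 in KO and rose by 1.38 (SE 0.11, 2.60-fold, adjusted p = 4.0e-05 from limma). *Arf6*, a small GTPase of endocytosis, rose by 0.56 (SE 0.073), and a second, dimmer cluster of *Arf6* had a change of 0.071 (adjusted p = 0.58). *Prkca*, a protein kinase C, rose by 0.40 (SE 0.077). *Grk3* fell by 0.64 (SE 0.16), with WT replicate 1 at 6.59 below KO replicate 2 at 6.62, and leaving out any of 5 arrays ended its call (adjusted p of up to 0.067). With the adipocyte mean as a covariate its change was -0.18 (adjusted p = 0.70), and it passed neither *t*-test (adjusted p = 0.11 with equal and 0.16 with unequal variances). The β-arrestins *Arrb1* and *Arrb2*, which uncouple phosphorylated receptors, were level between genotypes, at 8.28 in both for *Arrb1* and 6.83 in both for *Arrb2*.

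Of 7 measured regulators of *Mc2r* transcription, 2 fell and none rose (list median -0.11). *Nr0b1* encodes DAX1, a nuclear receptor that represses SF1-dependent genes, and the paper names it among the zona glomerulosa markers that fell. It was 9.48, 9.34, 9.84 and 9.32 in WT replicates 1 to 4, and 6.80, 5.37, 5.05 and 5.83 in KO replicates 1 to 4, and fell by 3.73 (SE 0.31, adjusted p = 4.0e-05 from limma). *Nr5a1*, which encodes SF1 itself, had a change of 0.26 (SE 0.15, adjusted p = 0.29). *Pparg* fell by 1.45 (SE 0.41, adjusted p = 0.040), but overlapped between genotypes, had the array order of the adipocyte mean, and had a change of 0.011 with that mean as a covariate. When each of the arrays other than WT replicate 1 was left out in turn, its adjusted p was 0.053 to 0.10.

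Downstream of the receptor, 3 of 9 measured ACTH-responsive steroidogenic genes rose and 1 fell (list median 0.091). *Fdx1*, ferredoxin, which passes electrons to mitochondrial steroid hydroxylases, was 9.77 to 10.36 in WT and 11.30 to 11.35 in KO and rose by 1.30 (SE 0.11, adjusted p = 5.3e-05 from limma). *Scarb1*, the receptor for high-density lipoprotein, was 11.62 to 11.98 in WT and 12.60 to 12.69 in KO and rose by 0.86 (SE 0.094). *Cyp11a1*, the side-chain cleavage enzyme, rose by 0.24 (SE 0.066), but its second, dimmer cluster fell by 1.16 (SE 0.14, adjusted p = 4.1e-04), so the clusters of this gene disagreed. The call of the brighter cluster was kept in 8 of 19 alternative settings: it was lost when any array other than WT replicate 1 was left out (adjusted p = 0.063 to 0.094), with the adipocyte covariate (0.15, adjusted p = 0.53), with unequal variances (adjusted p = 0.11), after repeated quantile normalization (adjusted p = 0.071) and with the replicate block (adjusted p = 0.086). *Lipe*, hormone-sensitive lipase, fell by 0.58 (SE 0.11), and its change with the adipocyte mean as a covariate was -0.33 (adjusted p = 0.32). In the *t*-tests *Lipe* passed with equal variances (adjusted p = 0.048) but not with unequal variances (adjusted p = 0.093). *Star*, the cholesterol carrier of the acute response, had means of 13.14 and 13.23 near the highest value on any array, 13.44, and did not pass the test (0.091, adjusted p = 0.39). Its signal ran from 13.09 to 13.19 in WT and from 13.19 to 13.28 in KO. By RT-qPCR, the paper reports higher *Star* mRNA in adrenals of this genotype.

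**Figure D4:**
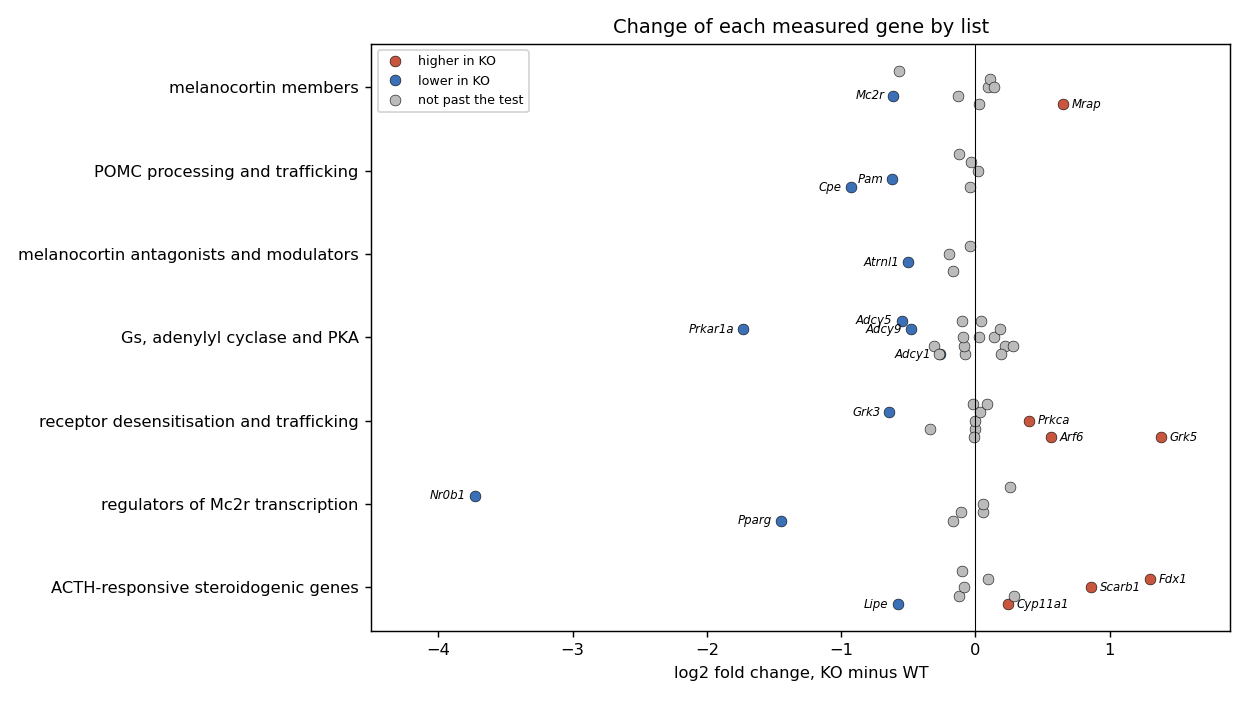
Log2 fold change of KO against WT (horizontal axis) for each measured gene of the melanocortin set and of the 6 lists around it (rows), 1 point per gene. Red points were higher and blue points lower at an adjusted p under 0.05 from limma, grey points did not pass, and small vertical offsets only separate the points. *Mc2r* (-0.61) and *Mrap* (0.65) lie on opposite sides of 0, and *Grk5* (1.38) and *Nr0b1* (-3.73) lie farther out in either direction.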

How the data were processed

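RNA of whole adrenals from 4 WT and 4 *sf1:Cre; Prkar1a Fl/Fl* mice was hybridised to 1 array each, as the labels describe. The authors normalized the arrays by RMA (affy package of R, version not given in the sources used here), and deposited 1 log2 value per cluster and array. A further deposited table, with the authors' own log2 fold changes and adjusted p-values, was not used. Of 28067 transcript clusters, the 22822 with exactly 1 gene symbol in the platform annotation were tested, and 22679 of these matched a gene identifier in the RefSeq gene table. Where a symbol had several clusters, that of highest mean over the arrays stood for it, and none of the 8 melanocortin genes had more than 1. Of the listed genes, 16 had no such cluster and were not analysed here.

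KO was compared with WT by limma 3.58.1 in R 4.3.3 (lmFit, eBayes, two-sided, no covariate), with Benjamini-Hochberg adjustment over all clusters tested and a threshold of 0.05. The number of arrays limits the precision. The labels call the arrays biological replicates. The procedure was tested on simulated data. Tables and figures were made with Python 3.11.15, pandas 2.3.3 and matplotlib 3.10.9.

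The members and lists were chosen with earlier results of these data known. Named are the 8 members, *Prkar1a*, up to 4 called genes of each list with the largest change, and the 5 nearest profiles to *Mc2r* and to *Mrap* among symbols with a mean above the median of the clusters. Other genes are named as members of a fixed list or, for *Cebpa*, *Ankef1* and *Usp28*, after their values were seen. Alternatives were *t*-tests with equal and with unequal variances, as the methods name a *t*-test but not its variances. Others were the replicate number as a block, clusters above the median, an intensity trend, array weights and centring. Repeated quantile normalization, all clusters, adipocyte or chromaffin means as covariates, and each array left out were also used.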

Additional observations from a re-analysis of the deposited data

Results flagged for a closer look

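In 2 of 50 groups of 4 arrays, covering the named members and list genes, 1 array lay apart from the other arrays of its genotype by more than Dixon's limit, which chance alone exceeds in about 1 of 20 groups. *Mc4r* was 4.10 in WT replicate 2, while the other WT arrays lay between 4.23 and 4.25. *Adcy9* was 8.44 in WT replicate 4, while the other WT arrays lay between 8.73 and 8.78.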

How the results depend on the processing

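*Mrap* kept its direction and passed the test in all 19 settings. *Mc2r* stayed lower in every setting, with changes from -0.74 to -0.48 when an array was left out (-0.58 without KO replicate 4, which ended the call), and it did not pass with equal variances (-0.61), unequal variances (-0.61) or the adipocyte covariate (-0.83). The lower members then numbered 0 in place of 1. *Mc5r* changed by -0.71 to -0.43 when an array was left out. The labels do not say whether equal replicate numbers pair the arrays. Deviations of equal numbers correlated between -0.0402 and 0.0424, which cannot decide it. With the replicate block *Mc5r* passed (-0.57, adjusted p = 0.024), which made 2 members lower, and the lower members numbered 0 to 2 when an array was left out.

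Over all clusters, 1678 were higher and 1407 lower. With equal variances 920 were lower, with unequal variances 710 were higher and 492 lower, and with the adipocyte covariate 680 and 509. Of the genes in the lists, 11 were lower, against 7 with equal variances, 4 with unequal variances and 3 with the adipocyte covariate, where *Pparg* changed sign to 0.011. The causes were not tested. No member had a second cluster to compare, and the restriction to clusters above the median left only *Mc2r* and *Mrap* among the members.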
